A study of Mus musculus with 24 samples.

Results

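The cyclins and inhibitors that set the entry of a cell into S phase were followed in mouse embryonic stem (ES) cells after knockdown of Cdk8 or Med12. The 10 genes were the D cyclins Ccnd1, Ccnd2 and Ccnd3, the E cyclins Ccne1 and Ccne2, the kinase Cdk6, and the inhibitors Cdkn1a, Cdkn1b, Cdkn2a and Cdkn2b. They were chosen by symbol, through every probe whose accession maps to it, which gave 16 of 41174 probes. All 10 genes were tested, among 22394 genes in all, and 15 of the 16 probes passed the filter on dim probes. The cells were of the R1 line and carried a lentiviral short hairpin RNA. The groups on day 13 after infection were shCdk8-1 and shCdk8-2 (hairpins against Cdk8), shMed12-1 and shMed12-2 (hairpins against Med12), and shNTC, a hairpin with no target. The groups on day 8 were shCdk8-1, shCdk8-2 and shNTC, and there were no Med12 hairpins on that day. Each of the 8 groups had 3 arrays. Cdk8 is the kinase of the Mediator kinase module, and Med12 is the subunit that activates it. All groups shared the infection with a hairpin vector, and uninfected cells were not analysed here. The labels call the replicates biological and do not say that cultures were infected separately, and every p-value then covers the spread among these arrays and nothing wider.

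D cyclins bind the kinases CDK4 and CDK6 and start the phosphorylation of the retinoblastoma family of pocket proteins, which frees E2F transcription factors. E cyclins then activate CDK2 and drive the start of DNA replication. Inhibitors of the INK4 family, p16Ink4a from Cdkn2a and p15Ink4b from Cdkn2b, bind CDK4 and CDK6, while inhibitors of the CIP/KIP family, p21 from Cdkn1a and p27 from Cdkn1b, bind cyclin complexes with CDK2. Cdkn2a also encodes p19Arf, which stabilises p53, and Cdkn1a is a textbook target of p53. Mouse ES cells are known for a short G1 phase, high E cyclin activity and weak checkpoint control by the pocket proteins.

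Each array gave the ratio of the cells' RNA (Cy5) to a universal mouse reference RNA (Cy3), and levels below are log2 ratios to that reference. Levels of different probes were not set against each other. Fold changes are log2 differences between group means with the standard error (SE) of a limma fit over all 24 arrays, and a gene was called changed at a Benjamini-Hochberg adjusted p under 0.05 over all 22394 genes. The RNA came from bulk cultures, so fewer cells with a transcript and less transcript per cell cannot be told apart. Both knockdowns were seen in their target. Cdk8 fell by 0.95 with shCdk8-1 and by 0.64 with shCdk8-2 on day 13, and by 0.71 and 0.31 on day 8. Med12 fell by 1.00 with shMed12-1 and by 0.88 with shMed12-2. The 9 ES cell markers had mean log2 ratios between 4.40 and 5.80 on every array, and the 13 measured fibroblast or feeder markers lay between -4.59 and -3.51.

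Of the 24 arrays, 2 stood apart in the slope of their log2 ratios, replicate 1 of shCdk8-1 on day 8 and replicate 3 of shMed12-1 on day 13. Spots far below their local background (over 50 intensity units, 4 and 7 spots) were found on these arrays alone, and their log2 ratios were compressed, with slopes of 0.76 and 0.76 on the other arrays of their group. The remaining 22 slopes ran between 0.96 and 1.14. A refit of the background without such spots brought all 24 slopes to between 0.96 and 1.02. Replicate 3 of shCdk8-2 on day 13 was not compressed (slope 0.96) but had the weakest signal. On it 48.9% of spots were above background in Cy5, against 57.4% or more on every other array. Fold changes are given from the original background, and the refitted value follows where it changes a call of one of the 10 genes or a named array decides it. Median centring of each array in place of loess lost 26 of the 35 calls made for the 10 genes in the comparisons with shNTC, of Cdk8 with Med12 knockdown and between days with shNTC, and it reversed none. The calls kept were those of Ccnd2 with each Med12 hairpin and both, Cdkn2a and Cdkn2b with shMed12-1, Ccnd1 with shCdk8-1 on day 8, Ccnd2 and Cdkn2b between Cdk8 and Med12 knockdown, and Cdk6 between days with shNTC. Comparisons between hairpins and between days within a Cdk8 hairpin line were run with the refitted background as their sole alternative. Arrays lay on 8 slides. Neither shCdk8-1 nor shMed12-1 shared a slide with shNTC of the same day, shCdk8-2 shared 1 slide on each day, and shMed12-2 shared 2. Hairpins of the same target shared no slide on the same day. Differences between them therefore cannot be told apart from slides within any slide.

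The sequences before the start sites of Cdkn2b, Cdkn2a and Cdkn1a are shown first, because Cdkn2b and Cdkn1a rose with both Med12 hairpins and Cdkn2a with shMed12-1. Their promoters differ in the motifs they carry. The inhibitor Cdkn1b, which did not pass with any hairpin, is not printed, and a link between motifs and changes was not tested. RefSeq promoter windows on GRCm38.p6 matched 7 of the 10 genes, in 10 windows; none was matched for Ccnd1, Ccnd2 and Ccne2. The 250 bases before each start are printed 5′ to 3′ on the strand of the gene. Capitals mark matches, on either strand, to an E2F word (TTTCCCGC, TTTGGCGC, TTTCGCGC or TTTGCCGC), a GC box or a p53 site with at most 1 mismatch. The GC box is the word GGGCGG on either strand. Also searched were the E box and TATA words spelled below.
Cdkn2b, chr4:89311033-89311282, minus strand: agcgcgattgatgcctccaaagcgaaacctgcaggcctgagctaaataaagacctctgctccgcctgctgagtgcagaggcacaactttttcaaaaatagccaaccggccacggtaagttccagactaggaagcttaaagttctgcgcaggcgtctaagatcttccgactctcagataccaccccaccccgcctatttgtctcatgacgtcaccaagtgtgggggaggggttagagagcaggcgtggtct
Cdkn2a start 1, chr4:89294620-89294869, minus strand: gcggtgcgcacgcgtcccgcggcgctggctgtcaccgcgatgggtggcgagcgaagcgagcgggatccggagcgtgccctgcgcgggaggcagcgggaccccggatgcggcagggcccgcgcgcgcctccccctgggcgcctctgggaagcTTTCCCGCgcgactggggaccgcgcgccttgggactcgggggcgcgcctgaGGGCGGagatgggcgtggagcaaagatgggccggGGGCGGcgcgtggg
Cdkn2a start 2, chr4:89282193-89282442, minus strand: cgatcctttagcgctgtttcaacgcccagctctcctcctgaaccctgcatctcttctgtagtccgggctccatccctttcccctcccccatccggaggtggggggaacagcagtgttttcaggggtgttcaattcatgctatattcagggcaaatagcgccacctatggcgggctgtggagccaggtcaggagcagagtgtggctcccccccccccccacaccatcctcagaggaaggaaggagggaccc
Cdkn1a start 1, chr17:29090729-29090978, plus strand: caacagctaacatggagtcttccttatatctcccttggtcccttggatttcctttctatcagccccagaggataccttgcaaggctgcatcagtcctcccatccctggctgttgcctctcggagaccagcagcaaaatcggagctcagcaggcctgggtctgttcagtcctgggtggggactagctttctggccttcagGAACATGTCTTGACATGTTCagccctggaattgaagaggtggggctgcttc
Cdkn1a start 2, chr17:29093519-29093768, plus strand: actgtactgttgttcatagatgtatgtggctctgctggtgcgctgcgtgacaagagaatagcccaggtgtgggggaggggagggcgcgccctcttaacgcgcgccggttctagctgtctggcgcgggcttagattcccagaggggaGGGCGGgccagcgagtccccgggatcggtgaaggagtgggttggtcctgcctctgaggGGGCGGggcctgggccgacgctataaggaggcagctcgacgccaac

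The window of the first Cdkn2a start holds an E2F word at position -99 and GC boxes at -48 and -14, counted from the start, and another after it, at 32. E2F words were found in 2.27% of all 32841 windows of 300 bases and GC boxes in 35.7%. The printed bases of Cdkn2b and of the second Cdkn2a start hold none of these words, and each has a GC box just after its start, at 5 and at 24. The window of the first Cdkn1a start holds a p53 site, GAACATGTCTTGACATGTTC, at -51, which 0.0883% of windows have (29 in all). The second Cdkn1a start has GC boxes at -104 and -46 and no p53 site. The TATA word TATAAA (13.6% of windows) was found among these genes in the window of Cdk6 alone, at -103. The same held for the E box CACGTG (7.15% of windows), at -220. Ccne1 has 4 GC boxes, both windows of Ccnd3 have 2 each, and Cdkn1b has 1. The letters describe these windows and no binding was measured.

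With Med12 knockdown on day 13, 3 of the 10 genes changed with both hairpins: Ccnd2 fell, and Cdkn2b and Cdkn1a rose. Ccnd2 alone kept the call under every alternative run: Cdkn2b and Cdkn1a lost it with median centring, and Cdkn1a also with slide as a block and other settings given with it. Among all genes, 8.60% were called by the same rule, which requires a call in the same direction with each hairpin. The hairpins taken alone called 7 genes with shMed12-1 (3 higher, 4 lower; 24.9% of all genes) and 5 with shMed12-2 (4 higher, 1 lower; 17.8%). The median log2 difference of the 10 genes was 0.00 over both hairpins, against 0.00 for all genes.

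Cdk8 knockdown called fewer of them with both hairpins. On day 13 limma called 0 of 10 (4.22% of all genes), or 3 at an unadjusted p under 0.05 with each hairpin. The refitted background called 1, Ccnd2 (6.99% of all genes). On day 8, 1 gene, Ccnd3, fell with both hairpins (5.10% of all genes), and Cdkn2b joined it with the refitted background (7.72% of all genes). Taken alone, shCdk8-1 called 4 genes on day 13 (3 higher and 1 lower, 12.6% of all genes). On day 8 it called 2 (1 higher and 1 lower, 16.9%), or 4 with the refitted background (21.6% of all genes). With shCdk8-2 on day 13 limma called 0 (11.6% of all genes), against 5 at an unadjusted p under 0.05 and 3 with the refitted background (17.5% of all genes). On day 8, shCdk8-2 called 3 genes, all lower (14.0% of all genes). The median over the 10 genes and both Cdk8 hairpins was 0.02 on day 13 and -0.02 on day 8, against 0.00 for all genes on each day. The comparisons of a day share the same 3 shNTC arrays.

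**Figure D1:**
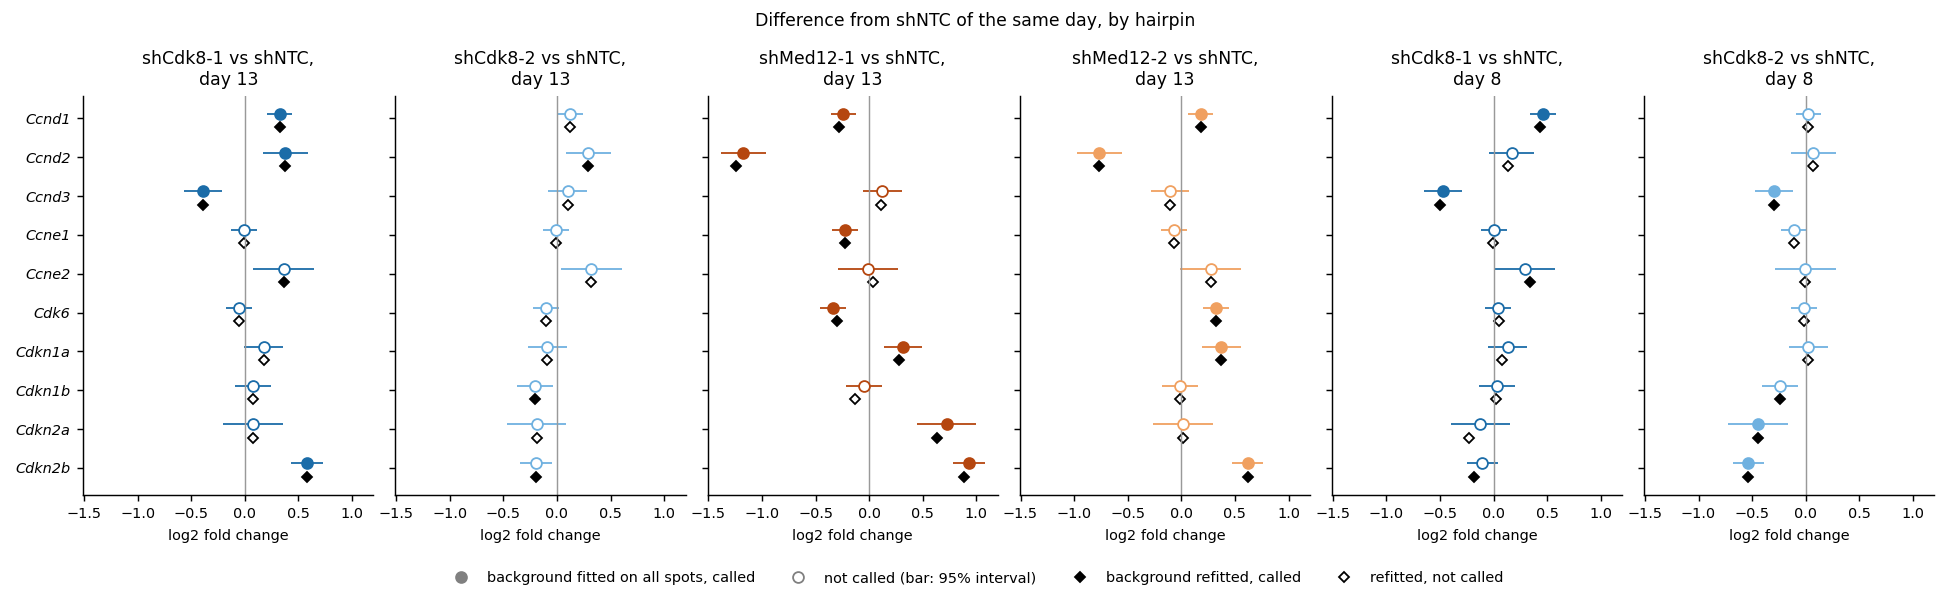
Log2 fold change of each of the 10 genes against shNTC of the same day, for the 6 hairpin comparisons. Circles are the fit with its 95% interval and diamonds the refitted background; filled symbols are called at an adjusted p under 0.05. Ccnd2 lies at -1.17 and -0.77 and Cdkn2b at 0.93 and 0.62 with the Med12 hairpins, while Cdkn2b lies on opposite sides of 0 with the Cdk8 hairpins on day 13.

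Ccnd2, which encodes cyclin D2, gave the largest fall of the 10 genes with Med12 knockdown. Its brightest probe read -3.14, -3.05 and -2.76 with shMed12-1 and -2.54, -2.59 and -2.59 with shMed12-2, against -1.85, -1.81 and -1.76 with shNTC on day 13. All 6 knockdown arrays lay below all 3 shNTC arrays. Ccnd2 fell to 0.51 of the shNTC level over both hairpins, a log2 change of -0.97 (SE 0.087, 95% interval -1.15 to -0.79, adjusted p = 8.5e-08). Each of its 3 probes showed it, with -0.97, -0.81 and -0.87. The 2 slides that held both shMed12-2 and shNTC gave -0.73 and -0.83. With slide as a random block the changes were -1.22 for shMed12-1 (adjusted p = 0.0012) and -0.72 for shMed12-2 (adjusted p = 0.0013). The hairpins also differed from each other in Ccnd2, with shMed12-1 lower than shMed12-2 by a log2 difference of -0.41 (adjusted p = 0.0059).

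Against shNTC of the same day, Cdk8 knockdown moved Ccnd2 the other way on day 13. Arrays read -1.58, -1.44 and -1.27 with shCdk8-1 and -1.49, -1.51 and -1.55 with shCdk8-2, all 6 above the shNTC arrays given above. Ccnd2 rose by 0.38 with shCdk8-1 (SE 0.10, adjusted p = 0.016), and that call was lost with slide as a block (0.40, adjusted p = 0.19), without shNTC replicate 1 (0.35, adjusted p = 0.066) and without shCdk8-1 replicate 3 (0.30, adjusted p = 0.096). The difference with shCdk8-2 was 0.29 and missed the threshold (adjusted p = 0.069), though it passed with the refitted background (adjusted p = 0.024). It also passed with the Feature Extraction log ratio (adjusted p = 0.0066), the authors' log2 ratios (adjusted p = 0.0063) and Cy5 alone (adjusted p = 0.0065). The mean over probes (adjusted p = 0.017) and the fit of only the groups compared (adjusted p = 0.010) passed too. Median centring, slide as a block and leaving out any single array did not bring a call. A second probe passed with both hairpins, at 0.51 (adjusted p = 8.1e-05) and 0.32 (adjusted p = 0.0063) over all probes. The third passed with shCdk8-1, at 0.37 (adjusted p = 0.019), and not with shCdk8-2, at 0.29 (adjusted p = 0.068). Markers of cell types moved on the same day. With both Cdk8 hairpins 4 of 12 primitive endoderm and 2 of 9 ES cell markers fell. Of the others, 3 of 9 trophoblast and 3 of 13 fibroblast or feeder markers rose. By the same rule 4.22% of all genes were called, in either direction. The ES cell markers averaged 5.29 to 5.45 with shCdk8-1 and 5.38 to 5.51 with shCdk8-2, against 5.62 to 5.74 with shNTC, and their part in the day 13 results was not tested. On day 8 the Ccnd2 differences were 0.17 and 0.07, and neither passed. The shNTC mean of Ccnd2 was -1.41 on day 8 and -1.81 on day 13. On day 13 the means with shCdk8-1 and shCdk8-2 were -1.43 and -1.52.

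Ccnd1, which encodes cyclin D1, differed between the hairpins of the same target. On day 8 it read -0.54, -0.70 and -0.70 with shCdk8-1, against -1.07, -1.13 and -1.12 with shNTC, and it rose by 0.46 (SE 0.056, adjusted p = 8.8e-06). With shCdk8-2 it read -1.12, -1.12 and -1.01 on day 8, overlapping the shNTC arrays, and the log2 difference was 0.02 (95% interval -0.09 to 0.14). On day 13 it rose by 0.33 with shCdk8-1 (adjusted p = 0.00045), against 0.12 with shCdk8-2 (adjusted p = 0.18). The difference between the Cdk8 hairpins was itself past the threshold, at 0.44 on day 8 (adjusted p = 1.8e-05) and 0.20 on day 13 (adjusted p = 0.021).

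The Med12 hairpins moved Ccnd1 in opposite directions. It read -1.34, -1.40 and -1.21 with shMed12-1 and -0.87, -0.92 and -0.90 with shMed12-2, on either side of shNTC at -1.06, -1.08 and -1.09. The arrays of the 3 groups did not overlap. Ccnd1 fell by 0.24 with shMed12-1 (adjusted p = 0.0036; with slide as a block -0.26, adjusted p = 0.11) and rose by 0.18 with shMed12-2 (adjusted p = 0.027; with slide as a block 0.18, adjusted p = 0.072). The shMed12-2 call was lost without any single shNTC array of day 13 and without replicate 1 or 3 of shMed12-2, at 0.17 to 0.19 and adjusted p between 0.059 and 0.097. The mean over both hairpins was -0.03 and their difference -0.42 (adjusted p = 1.4e-05).

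Ccnd3, which encodes cyclin D3, was the gene that fell with both Cdk8 hairpins on day 8. It read 0.10, 0.08 and -0.06 with shCdk8-1 and 0.30, 0.12 and 0.24 with shCdk8-2, against 0.55, 0.49 and 0.50 with shNTC. All 6 knockdown arrays lay below all 3 shNTC arrays, and the log2 change was -0.47 with shCdk8-1 (SE 0.086, adjusted p = 0.00066) and -0.29 with shCdk8-2 (adjusted p = 0.025). Both calls were lost with slide as a block, at -0.55 (adjusted p = 0.057) and -0.32 (adjusted p = 0.13). The shCdk8-2 call was also lost without any single shNTC array of day 8 and without replicate 2 or 3 of shCdk8-2, at -0.24 to -0.31 and adjusted p between 0.054 and 0.11. The 1 slide with arrays of both gave -0.31 for shCdk8-2.

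On day 13 Ccnd3 fell with shCdk8-1 alone. It read -0.06, 0.19 and 0.12 with shCdk8-1 and 0.51, 0.40 and 0.81 with shCdk8-2, against 0.47, 0.45 and 0.51 with shNTC. The value of 0.81 came from replicate 3 of shCdk8-2, the array with the weakest signal. Leaving out single arrays gave differences of -0.02 to 0.18 between shCdk8-2 and shNTC. The change with shCdk8-1 was -0.39 (adjusted p = 0.0041; with slide as a block -0.43, adjusted p = 0.10), and the difference with shCdk8-2 was 0.10 (95% interval -0.08 to 0.28). The Cdk8 hairpins differed by -0.49 on that day (adjusted p = 0.00061). With the Med12 hairpins the differences were 0.12 and -0.10, and neither passed.

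Cdk6, which encodes a kinase partner of the D cyclins, changed with time in every hairpin line that had both days. With shNTC it read 0.87, 0.84 and 0.86 on day 13, against 0.10, 0.00 and 0.06 on day 8. It read 0.84, 0.75 and 0.81 on day 13 with shCdk8-1, against 0.06, 0.04 and 0.18 on day 8. The days did not overlap in any line. Cdk6 was 1.74-fold higher on day 13 than on day 8 with shNTC (log2 0.80, SE 0.058, adjusted p = 6.2e-09; with slide as a block 0.80, adjusted p = 1.5e-05), and it rose by 0.71 in shCdk8-1 cells (adjusted p = 2.0e-08) and by 0.72 in shCdk8-2 cells (adjusted p = 1.2e-08). Cdk8 knockdown itself gave no call on either day, with 95% intervals over both hairpins of -0.18 to 0.03 on day 13 and -0.09 to 0.12 on day 8.

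The Med12 hairpins moved Cdk6 in opposite directions. It read 0.54, 0.60 and 0.42 with shMed12-1 and 1.16, 1.12 and 1.24 with shMed12-2, and the shNTC arrays of day 13 lay between them. The changes were -0.33 with shMed12-1 (adjusted p = 0.00024; with slide as a block -0.32, adjusted p = 0.072) and 0.32 with shMed12-2 (adjusted p = 0.00047; on the 2 shared slides 0.32 and 0.27). The hairpins differed by -0.65 (adjusted p = 8.2e-08). All of these values come from the brighter of 2 Cdk6 probes. The dimmer probe, above background on 18 of 24 arrays, gave 0.06 for the days with shNTC (adjusted p = 0.72), 0.24 for shMed12-1 (adjusted p = 0.065) and 0.22 for shMed12-2 (adjusted p = 0.10), so the probes of Cdk6 disagreed on time and on the direction with shMed12-1. The mean of both probes gave -0.05 for shMed12-1 (adjusted p = 0.56).

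**Figure D2:**
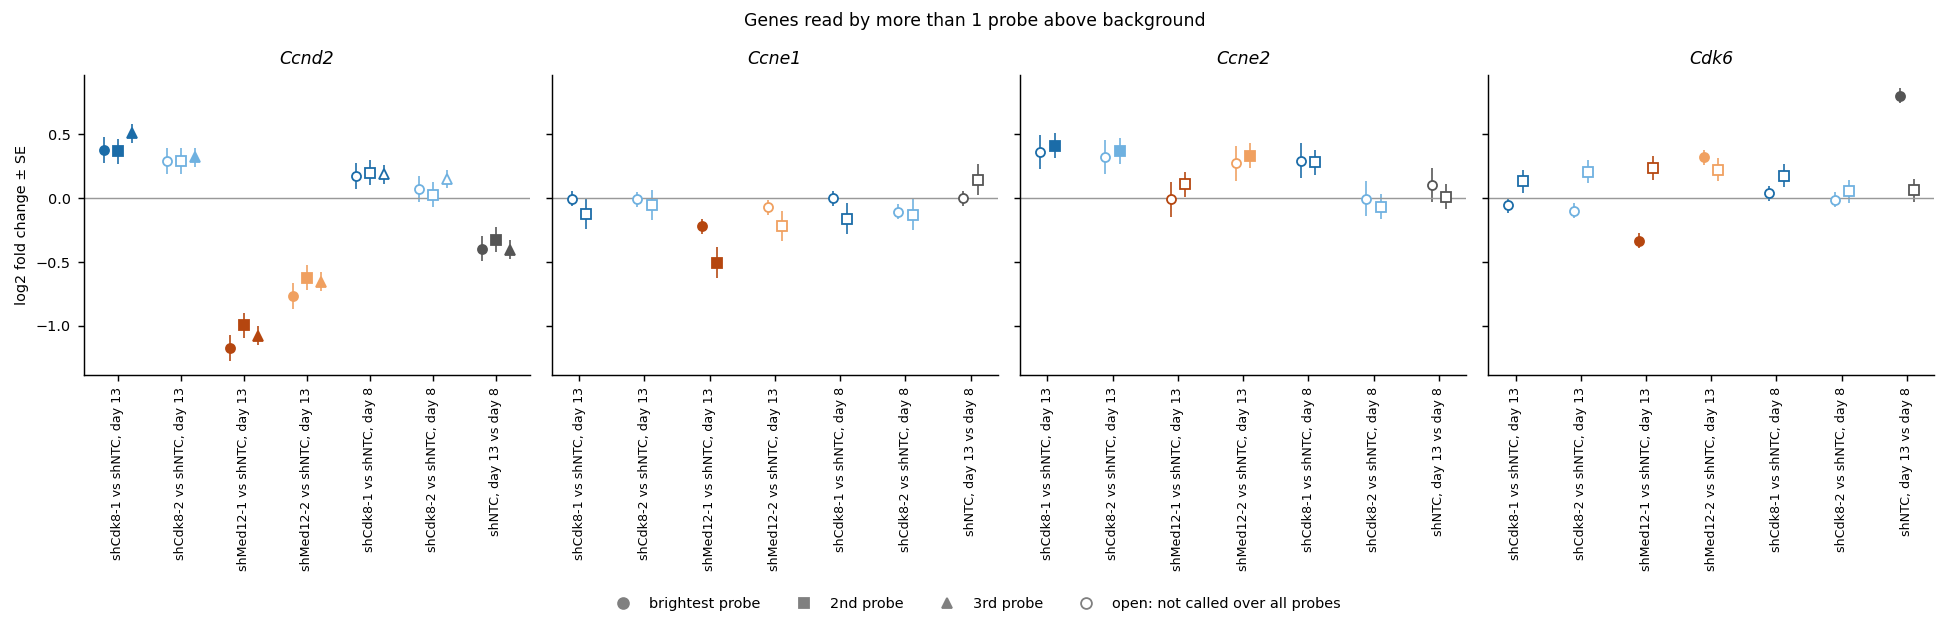
Log2 fold change with its standard error for each probe of the 4 genes with more than 1 tested probe (Ccnd2, Ccne1, Ccne2 and Cdk6), in the 6 hairpin comparisons and for shNTC on day 13 against day 8; filled symbols are called over all probes. The 3 Ccnd2 probes run together, and the Cdk6 probes part at 0.80 and 0.06 between days and at -0.33 and 0.24 with shMed12-1.

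Ccne1, which encodes cyclin E1, had group means over a range of 0.23 on its brighter probe, the narrowest of the 10 probes that stand for the genes. It stood at 3.07 ± 0.04 with shNTC on day 13 and 3.07 ± 0.05 on day 8 (SD, n = 3 each), well above the reference RNA. With shMed12-1 it read 2.83, 2.87 and 2.84, against 3.06, 3.11 and 3.04 with shNTC, with no overlap. Ccne1 fell by 0.22 with shMed12-1 (SE 0.058, adjusted p = 0.0082), a call lost with slide as a block (-0.22, adjusted p = 0.24), and its second probe fell by 0.51 (adjusted p = 0.0041), or by 0.32 with the refitted background (adjusted p = 0.00040). On that probe the array that stood apart read 2.48 and the other shMed12-1 arrays 2.96 and 2.96. With shMed12-2 the difference was -0.07 on the brighter probe (adjusted p = 0.47) and -0.22 on the other (adjusted p = 0.26, or 0.012 with the refitted background), and the difference between the hairpins, -0.15, missed the threshold (adjusted p = 0.074). Cdk8 knockdown gave -0.01 over both hairpins on day 13 (95% interval -0.11 to 0.10) and -0.05 on day 8 (-0.16 to 0.05).

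Ccne2, which encodes cyclin E2, varied more between arrays. It read 1.01, 0.58 and 0.53 with shCdk8-1 and 0.54, 0.78 and 0.67 with shCdk8-2 on day 13, against 0.32, 0.31 and 0.39 with shNTC. All 6 Cdk8 knockdown arrays lay above the shNTC arrays. The differences were 0.36 (SE 0.14, adjusted p = 0.091) and 0.32 (adjusted p = 0.15), so neither passed on the brighter probe. The first passed with the refitted background (adjusted p = 0.034) and the second with only the groups compared in the fit (adjusted p = 0.020). Both passed with the Feature Extraction log ratio, at 0.50 (adjusted p = 0.018) and 0.52 (adjusted p = 0.015). The authors' log2 ratios gave 0.50 (adjusted p = 0.017) and 0.52 (adjusted p = 0.014). The other probe, on its own accession, passed with both Cdk8 hairpins, at 0.41 (adjusted p = 0.0087) and 0.37 (adjusted p = 0.019), and with shMed12-2, at 0.33 (adjusted p = 0.025). On day 8 the values with shCdk8-1 were spread, at 0.20, 0.60 and 0.81, and the lowest was the array that stood apart. The difference on day 8 was 0.29 with shCdk8-1 (adjusted p = 0.15), 0.34 with the refitted background (adjusted p = 0.041), 0.46 without that array (adjusted p = 0.018), and -0.01 with shCdk8-2.

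Cdkn2b, which encodes the INK4 inhibitor p15Ink4b, gave the largest rise of the 10 genes with Med12 knockdown. It read -1.27, -1.30 and -1.18 with shMed12-1 and -1.63, -1.49 and -1.56 with shMed12-2, against -2.19, -2.21 and -2.14 with shNTC on day 13. All 6 knockdown arrays lay above all shNTC arrays. Cdkn2b was 1.71-fold higher over both hairpins (log2 0.78, SE 0.061, adjusted p = 1.2e-08), and the slides with both shMed12-2 and shNTC gave 0.58 and 0.65. With slide as a block the rise was 0.85 for shMed12-1 (adjusted p = 0.0013) and 0.60 for shMed12-2 (adjusted p = 0.00042). Median centring ended the shMed12-2 call (0.55, adjusted p = 0.068). The rise was higher with shMed12-1 than with shMed12-2, by 0.31 (adjusted p = 0.0029).

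With the Cdk8 hairpins Cdkn2b parted. On day 13 it read -1.58, -1.58 and -1.65 with shCdk8-1, above every shNTC array, and -2.31, -2.42 and -2.40 with shCdk8-2, below every one. The changes were 0.58 with shCdk8-1 (adjusted p = 9.3e-06; with slide as a block 0.51, adjusted p = 0.025; with median centring 0.55, adjusted p = 0.14) and -0.20 with shCdk8-2 (adjusted p = 0.078; with the refitted background adjusted p = 0.016). On day 8 it read -1.97, -2.19 and -2.28 with shCdk8-1 and -2.44, -2.65 and -2.65 with shCdk8-2, against -2.02, -2.09 and -2.02 with shNTC. Cdkn2b fell with shCdk8-2 on day 8 by 0.54 (adjusted p = 2.9e-05), the 1 slide with both gave -0.63, and the call was lost with median centring (-0.58, adjusted p = 0.12). With shCdk8-1 the difference on day 8 was -0.10 (adjusted p = 0.36), or -0.18 with the refitted background (adjusted p = 0.022). The Cdk8 hairpins differed by 0.78 on day 13 (adjusted p = 2.5e-07) and by 0.43 on day 8 (adjusted p = 0.00023).

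Cdkn2a lies beside Cdkn2b and is read here by a probe with 10 spots on each array. The probe was not placed on a transcript, so p16Ink4a and p19Arf cannot be told apart. It read -1.16, -1.13 and -0.93 with shMed12-1 and -1.80, -1.86 and -1.67 with shMed12-2, against -1.87, -1.75 and -1.77 with shNTC on day 13. The shMed12-1 arrays lay above all others of that day, while those of shMed12-2 overlapped shNTC. Cdkn2a rose by 0.72 with shMed12-1 (SE 0.13, adjusted p = 0.00044), or 0.64 with the refitted background, and the call was lost with slide as a block (0.56, adjusted p = 0.18). The difference with shMed12-2 was 0.02 (95% interval -0.26 to 0.30), and the hairpins differed by 0.70 (adjusted p = 0.00065).

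On day 8 Cdkn2a read -1.34, -1.86 and -2.16 with shCdk8-1 and -2.23, -2.03 and -2.08 with shCdk8-2, against -1.57, -1.85 and -1.58 with shNTC. The shCdk8-2 arrays lay below shNTC, and the widest spread was that of shCdk8-1, whose highest value came from the array that stood apart. Cdkn2a fell by 0.45 with shCdk8-2 (adjusted p = 0.028), and the call was lost with slide as a block (-0.38, adjusted p = 0.26), without replicate 1 or 3 of shNTC and without replicate 1 or 3 of shCdk8-2 (-0.39 to -0.46, adjusted p between 0.062 and 0.11). The difference with shCdk8-1 was -0.12 (adjusted p = 0.60), and -0.35 without its replicate 1 (adjusted p = 0.021). On day 13 the differences were 0.07 with shCdk8-1 and -0.19 with shCdk8-2, and neither passed.

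Cdkn1a, which encodes the CIP/KIP inhibitor p21, rose with both Med12 hairpins. It read -1.61, -1.64 and -1.35 with shMed12-1 and -1.44, -1.45 and -1.54 with shMed12-2, against -1.78, -1.90 and -1.86 with shNTC on day 13. All 6 knockdown arrays lay above the shNTC arrays. Cdkn1a was 1.27-fold higher over both (log2 0.34, SE 0.075, adjusted p = 0.0022), at 0.32 with shMed12-1 (adjusted p = 0.011) and 0.37 with shMed12-2 (adjusted p = 0.0042; on the 2 shared slides 0.46 and 0.41). The shMed12-1 call was lost without replicate 3, the array that stood apart (0.22, adjusted p = 0.083), with slide as a block (0.34, adjusted p = 0.18), from the Cy5 channel alone (0.08, adjusted p = 0.61) and with only the groups compared in the fit (0.32, adjusted p = 0.051). Median centring ended the calls of both hairpins, at 0.31 with shMed12-1 (adjusted p = 0.36) and 0.28 with shMed12-2 (adjusted p = 0.50). With the refitted background it was kept, at 0.27 (adjusted p = 0.0068). Cdk8 knockdown gave 0.04 over both hairpins on day 13 (95% interval -0.11 to 0.20) and 0.08 on day 8 (-0.08 to 0.23).

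Cdkn1b, which encodes the CIP/KIP inhibitor p27, did not pass against shNTC with any hairpin. It read -0.65, -0.74 and -0.71 with shCdk8-2 on day 13, against -0.47, -0.47 and -0.54 with shNTC, and -0.47, -0.48 and -0.42 on day 8, against -0.24, -0.26 and -0.15. The arrays did not overlap on either day. The differences were -0.21 on day 13 (SE 0.081, adjusted p = 0.12) and -0.24 on day 8 (adjusted p = 0.054). Both passed with the refitted background, at adjusted p of 0.021 and 0.0070. Both also passed with the Feature Extraction log ratio, at -0.61 (adjusted p = 0.00030) and -0.40 (adjusted p = 0.0081). The authors' log2 ratios gave -0.58 (adjusted p = 0.00032) and -0.37 (adjusted p = 0.011), and Cy5 alone -0.31 (adjusted p = 0.0035) and -0.25 (adjusted p = 0.014). With shCdk8-1 they were 0.08 and 0.03, and the Cdk8 hairpins differed by 0.28 on day 13 (adjusted p = 0.026) and 0.27 on day 8 (adjusted p = 0.024). With Med12 knockdown the mean over both hairpins was -0.03 (95% interval -0.18 to 0.12). Its second probe was above background on 2 of 24 arrays and was not tested.

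**Figure D3:**
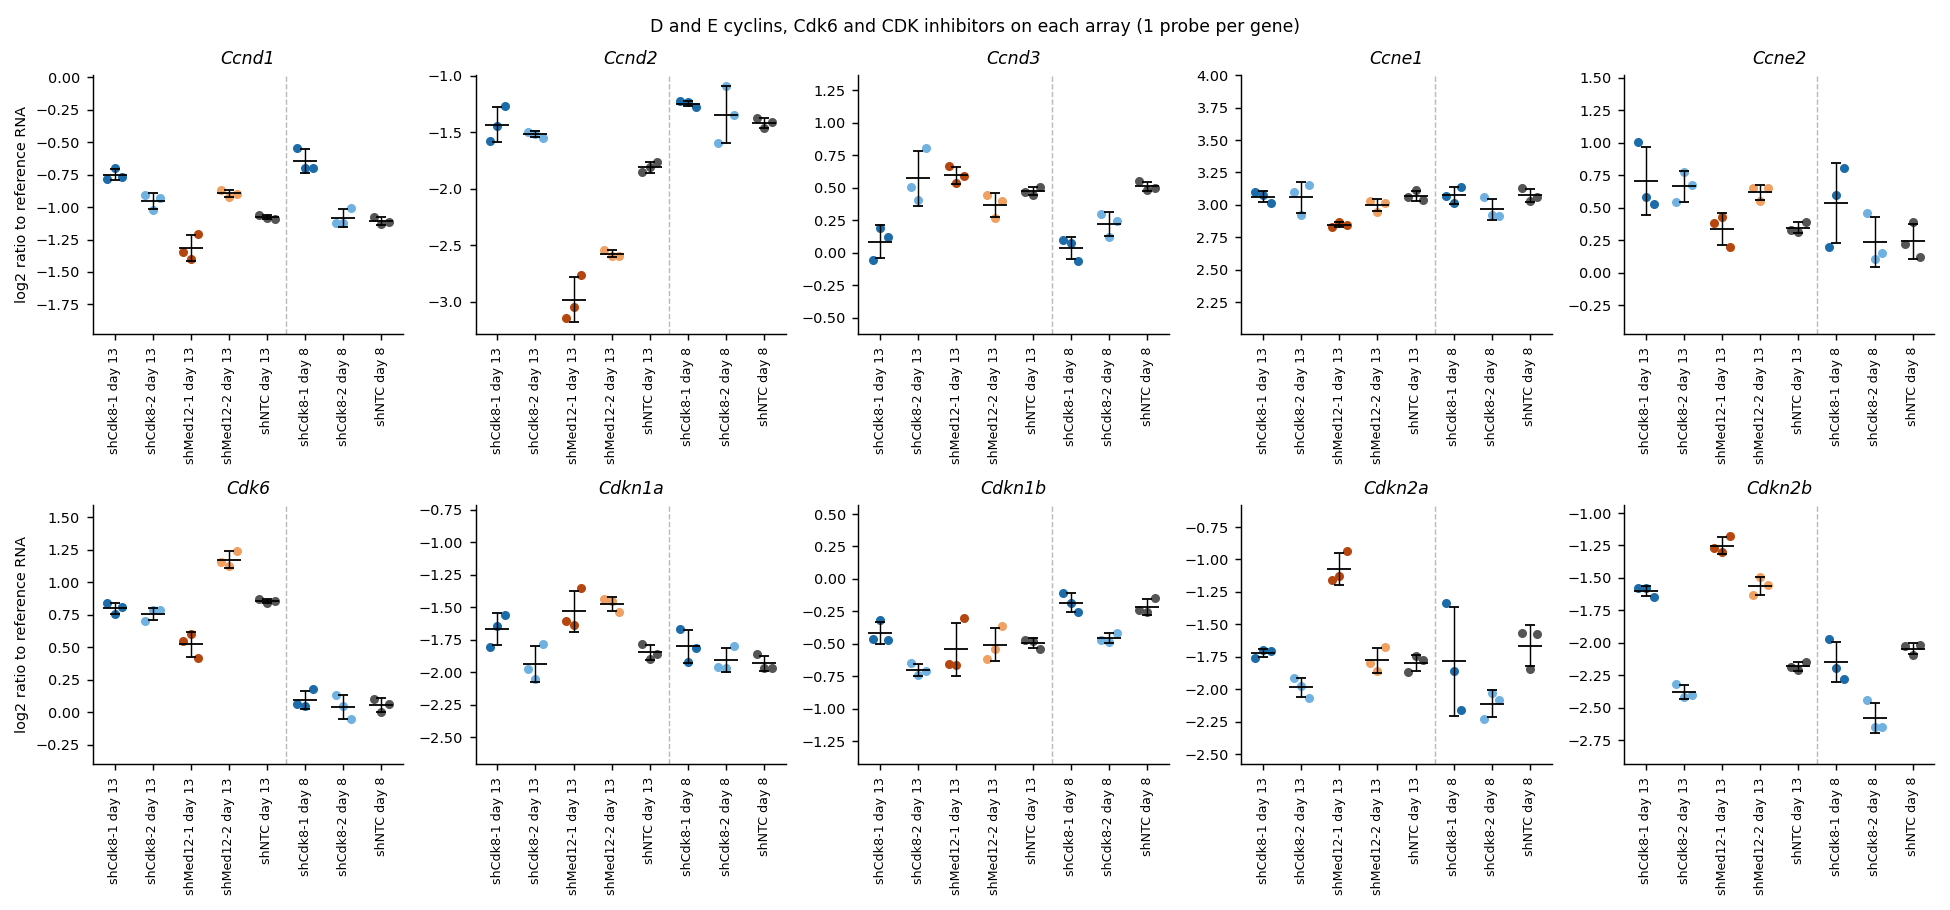
Log2 ratio to the reference RNA of each of the 10 genes on each array (points), with the mean and SD of the 3 arrays of each group, day 13 groups left of day 8 groups and shNTC last within each day. Ccnd2 with the Med12 hairpins lies between -3.14 and -2.54, below every other group, and Cdk6 lies at 0.42 or above on all day 13 arrays and at 0.18 or below on all day 8 arrays.

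Hairpins of the same target were also set against each other, in comparisons where no slide held both hairpins and no fit with slide as a block was run. The Cdk8 hairpins differed in 4 of 10 genes on day 13 (3 higher with shCdk8-1, 1 lower; 11.7% of all genes) and in 3 on day 8 (all higher; 17.7%). The genes on both days were Ccnd1, Cdkn1b and Cdkn2b, with Ccnd3 added on day 13. With the refitted background Cdkn1a joined them on day 13 (0.27, adjusted p = 0.013 against 0.053) and Ccne2 on day 8 (0.35, adjusted p = 0.036, against 0.30 and 0.14). The Med12 hairpins differed in 5 of 10 (2 higher with shMed12-1, 3 lower; 21.5% of all genes), namely Cdkn2a and Cdkn2b above and Ccnd1, Ccnd2 and Cdk6 below. Markers of other cell types also lay apart between the Med12 hairpins. The 9 measured trophoblast markers had mean log2 ratios of 1.34 to 1.82 with shMed12-1 and 0.92 to 1.02 with shMed12-2, against 0.61 to 0.66 with shNTC on day 13, and 4 of the 9 rose with both hairpins. Of 9 ES cell markers, 8 fell with shMed12-1, and 2 of them also with shMed12-2; with the refitted background 9 fell with shMed12-1 and 4 with both. The ES cell marker means were 4.40 to 5.08 with shMed12-1 and 5.14 to 5.27 with shMed12-2, against 5.62 to 5.74 with shNTC. With the refitted background the shMed12-1 range was 4.98 to 5.25, which overlapped that of shMed12-2. Of 13 fibroblast or feeder markers, 5 rose with both hairpins from the low levels given above. Among all genes 8.60% were called with both Med12 hairpins and 24.9% with shMed12-1, in either direction. With the refitted background these shares were 10.9% and 26.8%. The part of these markers in the cyclin and inhibitor changes was not tested.

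Set directly against each other on day 13, with no shNTC array in the comparison, Cdk8 and Med12 knockdown differed in 6 of the 10 genes (18.2% of all genes). Ccnd2 was higher with Cdk8 knockdown by 1.30 (SE 0.071, adjusted p = 7.2e-11), Ccnd1 by 0.25 (adjusted p = 9.3e-05) and Ccne1 by 0.14 (adjusted p = 0.022). The inhibitors were lower with Cdk8 knockdown, Cdkn2b by a log2 difference of -0.58 (adjusted p = 5.1e-08), Cdkn2a by -0.43 (adjusted p = 0.0027) and Cdkn1a by -0.30 (adjusted p = 0.0014). With slide as a block 5 of the 6 kept the call, and Ccne1 did not (0.13, adjusted p = 0.12). With median centring 2 kept it, Ccnd2 and Cdkn2b, and it was lost by Ccnd1 (0.26, adjusted p = 0.25), Ccne1 (0.13, adjusted p = 0.69), Cdkn1a (-0.33, adjusted p = 0.17) and Cdkn2a (-0.42, adjusted p = 0.12). Single hairpins did not all follow these averages. Ccnd1 had a mean of -0.95 with shCdk8-2 and -0.90 with shMed12-2, and arrays of shCdk8-1 and shMed12-2 overlapped in Cdkn2a and Cdkn2b. Arrays of shCdk8-1 and shMed12-1 overlapped in Cdkn1a, and arrays of each Cdk8 hairpin overlapped those of shMed12-2 in Ccne1. The Ccne1 call was also lost without replicate 1 of shCdk8-1, replicate 1 or 3 of shCdk8-2 or replicate 2 of shMed12-2 (0.12 to 0.13, adjusted p between 0.052 and 0.063). Ccnd3, Ccne2, Cdk6 and Cdkn1b did not pass. Ccnd3 did pass without replicate 3 of shCdk8-2, the array with the weakest signal (-0.21, adjusted p = 0.0067).

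Between day 8 and day 13 the shNTC cells changed in 3 of the 10 genes (1 higher, 2 lower; 17.6% of all genes): Cdk6 rose, and Ccnd2 and Cdkn1b fell. Ccnd2 was lower on day 13 by 0.39 on the log2 scale (a change of -0.39, SE 0.10, adjusted p = 0.0091), its other probes gave -0.33 and -0.40, and the call was lost with median centring (-0.33, adjusted p = 0.49). Cdkn1b read -0.47, -0.47 and -0.54 on day 13, against -0.24, -0.26 and -0.15 on day 8, a change of -0.28 (adjusted p = 0.021). That call was lost with slide as a block (-0.25, adjusted p = 0.10), without replicate 3 of shNTC on day 13 (-0.26, adjusted p = 0.079) and without replicate 3 on day 8 (-0.25, adjusted p = 0.090). In the same cells 11 of 12 primitive endoderm markers were lower on day 13, with means of -0.89 to -0.83 on day 13 against -0.05 to 0.01 on day 8, and their part was not tested.

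The Cdk8 hairpin lines changed over the same days in 3 genes with shCdk8-1 (2 higher, 1 lower; 24.0% of all genes) and in 5 with shCdk8-2 (4 higher, 1 lower; 27.3%). Cdkn1b fell in both lines, by 0.24 in each (adjusted p = 0.040 for shCdk8-1 and 0.030 for shCdk8-2), and Cdk6 rose in both as given above. Ccnd2, which fell in shNTC cells, changed by -0.19 in shCdk8-1 cells (adjusted p = 0.20) and by -0.17 in shCdk8-2 cells (adjusted p = 0.23). Cdkn2b rose by 0.55 in shCdk8-1 cells (adjusted p = 6.6e-06) and by 0.20 in shCdk8-2 cells (adjusted p = 0.037), against a change of -0.14 in shNTC cells (adjusted p = 0.21). Ccnd3 rose by 0.35 (adjusted p = 0.0038) and Ccne2 by 0.43 (adjusted p = 0.023) with shCdk8-2. Ccnd1 was higher on day 13 in that line by 0.13, which passed with the refitted background alone (adjusted p = 0.034, against 0.090). The effect of Cdk8 knockdown differed between the days in 1 of 10 genes, Cdkn2b (2.37% of all genes), by 0.51 (SE 0.086, adjusted p = 0.0019); the call was lost with slide as a block (0.48, adjusted p = 0.058) and with median centring (0.43, adjusted p = 1.00). On day 8 the primitive endoderm markers were also lower with Cdk8 knockdown, 6 of 12 with both hairpins (5.10% of all genes called). Their means were -0.42 to -0.32 with shCdk8-1 and -0.90 to -0.87 with shCdk8-2, against -0.05 to 0.01 with shNTC. Their part in the day 8 results was not tested.

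The other genes of the cell cycle entry pathway were read from fixed lists, counting genes called with both hairpins on the original background. By that rule 8.60% of all genes were called with Med12 knockdown, and 4.22% and 5.10% with Cdk8 knockdown on days 13 and 8. The refitted background called 10.9%, 6.99% and 7.72% in the same order. Of 9 G1 kinases and pocket proteins limma called 0 in each knockdown, and at an unadjusted p under 0.05 with each hairpin 0 on day 13 with Cdk8 or Med12 knockdown and 2 with Cdk8 knockdown on day 8. The refitted background called 1 with Med12 knockdown, and 1 with Cdk8 knockdown on day 8. Cdk4, the other kinase partner of the D cyclins, gave -0.05 with Med12 knockdown, and with Cdk8 knockdown 0.03 on day 13 and 0.11 on day 8. Cdk2, the partner of the E cyclins, gave -0.14, -0.04 and -0.03 in the same order. Rb1, the retinoblastoma protein gene, was higher with Cdk8 than with Med12 knockdown by 0.36. Of the 3 other CDK inhibitors measured (Cdkn1c, Cdkn2c and Cdkn2d), 0 were called in each knockdown, also at an unadjusted p under 0.05, and Cdkn1c, which encodes p57, was higher with Cdk8 than with Med12 knockdown by 0.67. With the refitted background Cdkn1c was called on day 13, at 0.34 with Cdk8 knockdown and -0.20 with Med12 knockdown. Of 5 CDK phosphatases and WEE kinases limma called 0 in each knockdown, against 0 with Med12 knockdown, and 1 and 2 with Cdk8 knockdown on days 13 and 8, at an unadjusted p under 0.05.

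Of 10 E2F and DP factors, E2f6, a repressor of the family, rose by 0.29 with Cdk8 knockdown on day 13 and by 0.26 with Med12 knockdown. E2f3 fell by 0.22 with Cdk8 knockdown on day 8, and E2f2 fell by 0.47 with Med12 knockdown, where the other counts were 0. Of 13 genes for the degradation of cyclins and inhibitors, 3 rose with Med12 knockdown (8.60% of all genes called). Fbxo4, which in human cells has been described to target cyclin D1, rose by 0.52. The cullins Cul4b and Cul4a rose by 0.43 and 0.25. Cul4b fell by 0.32 with Cdk8 knockdown on day 8, and 0 were called on day 13 (1 at an unadjusted p under 0.05). Of 4 A and B cyclins, Ccnb1 fell by 0.21 with Cdk8 knockdown on day 8, and 0 were called in the knockdowns of day 13, against 1 with Cdk8 and 2 with Med12 knockdown at an unadjusted p under 0.05.

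Of 18 replication genes known to respond to E2F, 4 changed with Med12 knockdown (8.60% of all genes called). Rrm1, a subunit of ribonucleotide reductase, rose by 0.21. Tk1 (thymidine kinase) fell by 0.23, Rfc4 (a clamp loader subunit) by 0.21 and Mcm7 (a helicase subunit) by 0.20. With Cdk8 knockdown on day 8 Rrm2 rose by 0.34 and Rfc4 fell by 0.22, and on day 13 limma called 0, against 3 at an unadjusted p under 0.05. The median of the 18 was -0.06 after loss of Med12, and -0.05 (day 13) and 0.00 (day 8) after loss of Cdk8, against 0.00 for all genes in each comparison.

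Of 19 measured genes of p53 and its targets, among which Cdkn1a is usually counted, 3 changed with Med12 knockdown (8.60% of all genes called). Plk2 rose by 0.55 and Btg2 by 0.46, and Gdf15 fell by 0.43. With Cdk8 knockdown on day 13 Gadd45a rose by 0.44, Pmaip1 by 0.38 and Plk2 by 0.34, and Gdf15 fell by 0.35. On day 8 Gadd45a rose by 0.49 and Bbc3 by 0.38, and Ccng1 fell by 0.27. The list medians were 0.03, 0.03 and -0.05 in that order, against 0.00 for all genes each time. Of 16 regulators of the Cdkn2a locus, Ets1, a factor described to activate p16INK4a in human fibroblasts, rose by 1.10 with Med12 knockdown, and limma called 0 with Cdk8 knockdown on day 13 or day 8, also at an unadjusted p under 0.05.

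The pattern over the 8 group means was compared with other genes for the 3 genes with the widest changes, Ccnd2 (range 1.74), Cdkn2b (1.33) and Cdk6 (1.13). The best matches were taken among tested genes with a symbol, which were 13732 in all. The genes most like Ccnd2 were Dlgap3 (Pearson r 0.98), Med12 itself (0.98) and Gfpt2 (0.97). Those most like Cdkn2b were Tmcc2 (0.97), E130311K13Rik (0.96) and Car5a (0.96). Those most like Cdk6 were Spry1 (0.98), Rimkla (0.98) and Bscl2 (0.98). These are descriptions over 8 groups that share days, hairpins and 2 sets of shNTC arrays, and the highest coefficients of a whole array are high by selection.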

How the data were processed

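Per the submitters' processing notes, spots were read with Agilent Feature Extraction 10.7. Scanner files as deposited list median spot and local background intensities, per the file headers, and a log10 ratio of Cy5 over Cy3 after that program's own correction. The authors also deposited log2 ratios. Their slope on the scanner ratio was 1.00 on every array, and column medians ran from -0.0045 to 0.12. Intensities were corrected with normexp (offset 50) on all spots and log2 ratios were normalized by loess within each array, with control and outlier spots left out. Arrays held 8 groups of 3, and between 48.9% and 76.1% of spots were above background in Cy5; the number of arrays limits the precision.

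A probe was kept (28302 of 41174) if some group had it above background in Cy5 on each of its 3 arrays, and the brightest probe stood for a gene. Names came from matching accessions to a RefSeq gene list, which gave a symbol to 22951 probes. Tables were loaded by data.table (version 1.17.8), and limma 3.58.1 under R 4.3.3 fitted 8 group means with 16 residual degrees of freedom, tested on simulated data first. Every one of the 10 genes and each tested probe was fitted in every comparison with shNTC, between the knockdowns and between days with shNTC. Values of the dimmer probes are printed for part of these. Cdk8 and Med12 served as the check, and the called genes of each list were read. The genes and lists were chosen with earlier results of these data known. Replicate numbers did not pair the arrays: 2 of 18 pairs of same-numbered arrays, both of shCdk8-1 and shNTC on day 8, correlated above 0.1 (-0.12 to 0.21).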

Additional observations from a re-analysis of the deposited data

Results flagged for a closer look

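The effect of Cdk8 knockdown on Cdkn2b differed between the days by a log2 value of 0.51 (SE 0.086, adjusted p = 0.0019 in the limma interaction contrast). The call was lost with slide as a block (0.48, adjusted p = 0.058) and with median centring (0.43, adjusted p = 1.00). The effect over both hairpins was 0.19 on day 13 and -0.32 on day 8. All 3 shCdk8-1 arrays lay above shNTC on day 13, while all 3 shCdk8-2 arrays lay below shNTC on both days.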

How the results depend on the processing

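Of 120 values of the 10 genes in 12 comparisons, 35 were called, and no called value reversed under any alternative run. Median centring in place of loess lost 26 calls and gained 0, slide as a random block lost 16 and gained 0, and leaving out single arrays lost 9 and gained 4. The refitted background, chosen after seeing the data, lost 0 and gained 9. It also raised the called share of all genes in each of these comparisons, with shCdk8-2 on day 13 from 11.6% to 17.5%. Depth of signal limits Cdkn1b and Cdk6, which have probes near background, and shCdk8-1 and shMed12-1 cannot be told apart from their slides within any 1 slide.

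The number of the 10 genes called moved as follows in the comparisons named, and it also moved in some that are not listed. Median centring gave 1 for shCdk8-1 and 0 for shCdk8-2 on day 8, 0 for shCdk8-1 on day 13, 3 for shMed12-1, 1 for shMed12-2, 0 for both Cdk8 hairpins on day 8, 1 for both Med12 hairpins, 2 for Cdk8 against Med12, 0 for the Cdk8 effect between days and 1 for shNTC between days. The Feature Extraction log ratio and the authors' value table each gave 5 for shCdk8-1 and 5 for shCdk8-2 on day 8, 4 for shCdk8-2 on day 13, and 2 for both Cdk8 hairpins on each day. Cy5 alone gave 3 for shCdk8-2 on day 13, 1 and 2 for both Cdk8 hairpins on days 13 and 8, and 2 for the effect between days. The refitted background gave 4 for shCdk8-1 on day 8, 3 for shCdk8-2 on day 13, and 1 and 2 for both hairpins on days 13 and 8; leaving out both arrays that stood apart gave 5, 3, 1 and 3 for the same. The mean over probes gave 1 and 1, the fit of only the groups compared 3 and 1, and probes above background on all arrays 1 and 1, for shCdk8-2 and for both hairpins on day 13. Slide as a block gave 1 for each Cdk8 hairpin on day 8, 2 for shCdk8-1 on day 13, 2 for shMed12-1, 0 for both Cdk8 hairpins on day 8 and 0 for the effect between days; with the refitted background it gave 2 for shCdk8-2 on day 13 and 0 for both hairpins on day 8. Over all genes, called numbers also moved with these settings, for shCdk8-1 on day 8 to 829 with median centring against 3775.

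Leaving out single arrays gave 2 to 4 for shCdk8-1 and 1 to 3 for shCdk8-2 on day 8, 3 to 4 for shCdk8-1 and 0 to 0 for shCdk8-2 on day 13, 6 to 7 for shMed12-1, 4 to 5 for shMed12-2, 0 to 2 for both Cdk8 hairpins on day 8 and 0 to 0 on day 13, 2 to 3 for both Med12 hairpins, 5 to 6 for Cdk8 against Med12, 1 to 1 for the effect between days and 2 to 3 for shNTC between days. The fit with the replicate number as a block, which is no true pairing here, gave the counts 2, 3, 4, 0, 7, 5, 1, 0, 3, 6, 1 and 3 in the 12 comparisons and lost or gained 0 calls. Causes of these shifts were not tested.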
